A study of Mus musculus with 3 samples.

Results

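Male germ cell transcripts had far more reads in 1 of 3 ribosome-bound RNA libraries from mouse brain, the pool from the contralateral hemisphere, than in the others. The genes described here were selected on their values: they had a normalised read count of at least 100 in that library and of at most 10 in each of the other libraries. Of 16610 genes, 196 met these thresholds. Of these, 8 were set aside for their symbol start (Adam1b, Adam2, Adam24, Adam3, Adam32, Adam5, Odf1 and Spag17), which left 188 member genes. The values of all 3 libraries thus chose the members, so their difference between libraries is given as a description, without a test. The mirrored thresholds were met by 0 genes for the control library and by 6 for the library of the occluded hemisphere (Cd72, Col5a3, Cxcl13, Ifi202b, Msr1 and Tk1).

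All 3 libraries came from the middle section of a mouse brain hemisphere, and animals were killed after 3 days. The control pool held right hemispheres of mice without middle cerebral artery occlusion (MCAO, a stroke model in which a brain artery is blocked). The contralateral pool held right hemispheres of mice with MCAO for 1 h, and the MCAO pool held left hemispheres with MCAO for 1 h. Each group was 1 library from a pool of 3 animals, with 2 technical replicates, so values carry no replicate error and intervals cover counting error only. RNA was enriched with RiboTag, a method that precipitates ribosomes bearing an epitope-tagged protein, and pull-downs were repeated and combined for each pool. The title speaks of astrocytes, while no driver line, strain, age or sex was named in the sources used here. Left and right could not be separated from occlusion.

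Spermatogenesis runs in the seminiferous tubules of the testis from spermatogonia, the dividing stem and progenitor cells, through spermatocytes, which carry out meiosis, to haploid spermatids. Round spermatids build the acrosome, the enzyme-filled cap of the sperm head, and elongating spermatids exchange histones for transition proteins and then protamines while the tail is assembled. Because transcription stops as the nucleus condenses, spermatids store many transcripts and translate them later. Germ cells also use their own forms of enzymes and cytoskeletal proteins that other tissues make from separate genes.

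The contralateral library was labelled as brain, and the list medians of its astrocyte and neuron transcripts were near those of the other libraries. Over 20 astrocyte genes the median normalised count was 11076 in the control, 13428 in the contralateral and 14800 in the MCAO library, and over 18 neuron genes it was 12711, 12875 and 12526. Single genes could differ: Gfap, an astrocyte filament that rises with injury, had 5903, 12202 and 76049 (chosen after its values were seen). The depth was 31833456, 33886604 and 25930258 reads in the same order, and 1 read was worth 0.969, 0.887 and 1.18 normalised counts. The contralateral library thus held brain transcripts beside the members. That it stands apart from the others by the members is fixed by the rule. Without this library there are no members, so every value below rests on it.

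The start regions of the members are shown first, since some motifs recurred in them close to the start site. The promoter sequences are from RefSeq on GRCm38.p6 (mm10) and were found for 154 members, as 180 promoters of 300 bases (250 before the start and 50 after it). Each line gives the 120 bases before the start, 5′ to 3′ in the direction of the gene, with the match in capitals to TGANGTCA, a form of the cAMP response element (CRE) with 1 free base, searched on both strands. They include 2 pairs of neighbouring genes, Actl7b with Actl7a and Fam71f2 with Fam71f1.
Akap4 (chrX:7067395-7067514, plus strand): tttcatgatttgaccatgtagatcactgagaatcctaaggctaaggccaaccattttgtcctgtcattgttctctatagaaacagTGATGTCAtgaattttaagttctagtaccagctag
Tnp1 (chr1:73015900-73016019, minus strand): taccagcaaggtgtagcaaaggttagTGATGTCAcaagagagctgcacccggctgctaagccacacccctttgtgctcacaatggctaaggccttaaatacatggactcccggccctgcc
Prm1 (chr16:10796824-10796943, minus strand): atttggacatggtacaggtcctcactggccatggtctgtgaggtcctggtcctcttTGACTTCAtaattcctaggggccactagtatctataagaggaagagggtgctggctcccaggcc
Actl7b (chr4:56741426-56741545, minus strand): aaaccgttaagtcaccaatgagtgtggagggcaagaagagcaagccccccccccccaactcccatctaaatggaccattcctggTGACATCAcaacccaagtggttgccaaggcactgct
Actl7a (chr4:56743302-56743421, plus strand): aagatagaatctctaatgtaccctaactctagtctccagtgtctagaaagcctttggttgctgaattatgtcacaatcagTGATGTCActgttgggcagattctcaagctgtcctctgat
Tssk2 (chr16:17898517-17898636, plus strand): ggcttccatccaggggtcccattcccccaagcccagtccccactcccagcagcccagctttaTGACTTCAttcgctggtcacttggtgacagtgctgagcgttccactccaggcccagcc
Fam71f2 (chr6:29281021-29281140, plus strand): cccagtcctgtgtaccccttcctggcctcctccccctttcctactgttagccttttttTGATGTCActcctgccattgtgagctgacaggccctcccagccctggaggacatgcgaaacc
Fam71f1 (chr6:29319020-29319139, plus strand): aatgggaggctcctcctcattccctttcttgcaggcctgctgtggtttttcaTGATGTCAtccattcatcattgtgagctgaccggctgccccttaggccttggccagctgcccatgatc
In these windows the first base of the match lay 35 bases before the start of Akap4, 94 before Tnp1, 64 before Prm1, 36 before Actl7b, 40 before Actl7a, 58 before Tssk2, 62 before Fam71f2 and 68 before Fam71f1.

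A match to TGANGTCA occurred in 41 of the 180 member promoters (22.8%), against 8.83% of all 32851 promoters and 7.82% of the 16477 promoters of genes in the table. Within the 120 bases before the start, 36 member promoters had one, against 4.81% of the promoters of genes in the table. These 36 promoters belonged to 33 members, and the match began 9 to 104 bases before the start, with a median of 55. The form TGATGTCA and its reverse complement TGACATCA occurred 12 and 7 times, TGACCTCA 7 times, TGAGGTCA 4 times, TGACTTCA 3 times, TGAAGTCA 2 times and the full element TGACGTCA 4 times. Some promoters share a match: those of Tnp1 and of its divergent neighbour 1700027A15Rik, a member too, read the same 8 bases at chr1:73015986-73015993 from opposite strands. Member promoters were also poor in CpG, with a median observed over expected ratio of 0.226 against 0.703 for the promoters of genes in the table. Among promoters with a ratio under 0.4, a match was found in 31.7% of 126 member promoters and in 11.7% of 4021 promoters of genes in the table.

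**Figure D1:**
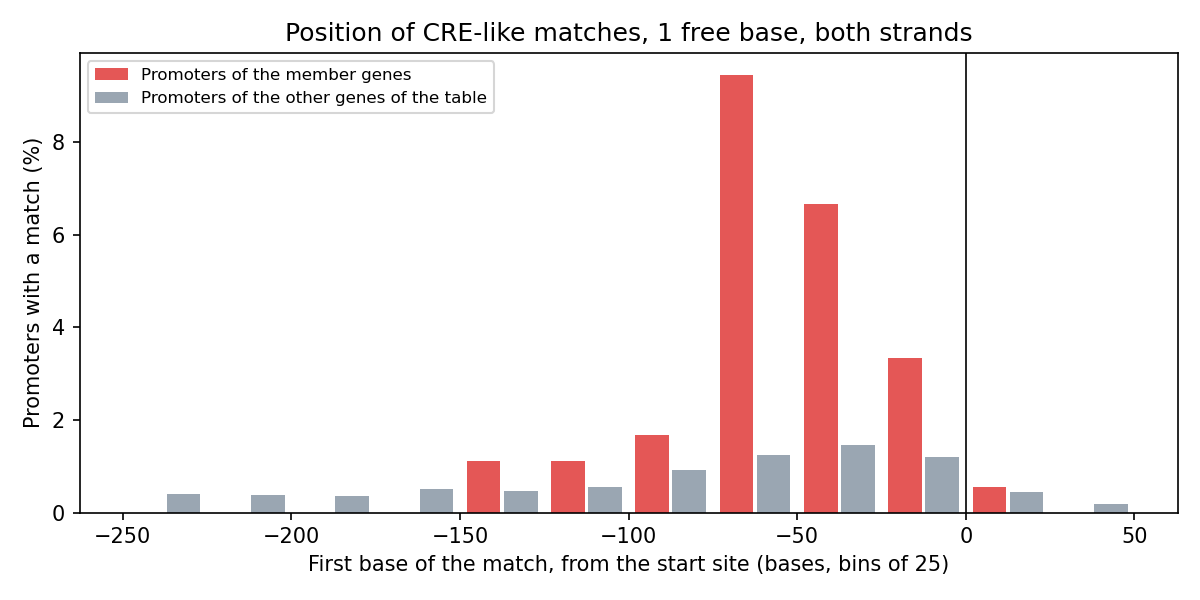
Position of TGANGTCA matches on both strands around the start site, as the share of promoters with a match that begins in each bin of 25 bases, for the 180 member promoters (red) and the promoters of the other genes of the table (grey). The bin from -75 to -51 held a match in 9.44% of the member promoters and in 1.24% of the others.

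The search covered 13 motifs on both strands, and TGANGTCA, the window of 120 bases and the CpG limit were singled out after their shares were seen. The shares that follow are for member promoters, all promoters and promoters of genes in the table. The full element TGACGTCA occurred in 2.22%, 1.79% and 2.79%, TGACGTNA in 2.22%, 2.93% and 4.31%, and the shorter element TGACG, contained in both, in 16.1%, 20.8% and 28.1%. The direction for TGACGTCA thus depended on the set it was compared with. The SOX-like motif AACAAT occurred in 17.8%, 10.7% and 6.30%, and ACAATG, which can overlap it, in 25.6%, 12.6% and 8.16%. Within the 120 bases before the start, ACAATG was found in 17.8% of member promoters and 3.09% of those of genes in the table, AACAAT in 10% and 2.05% and GTTGCC, an X-box arm, in 11.7% and 5.78%, so closeness to the start was not particular to TGANGTCA. Over the whole promoter GTTGCC occurred in 18.3%, 12.5% and 13.1%, the same letters followed directly by ATGG in 1.67%, 0.563% and 0.637%, and the palindromic X-box (a longer motif with free bases, known by that name) in 1.67%, 0.505% and 0.577%. The MYB-like motif AACNGNC occurred in 41.1%, 32.8% and 33.3%, its shorter form AACNG in 88.3%, 80.3% and 77.9%, GGNGCATGC in 0.556%, 1.55% and 2.14%, and TATAAA in 14.4%, 13.6% and 7.88%. Among promoters with a CpG ratio under 0.4, ACAATG occurred in 31.7% of member promoters and 14.8% of those of genes in the table. TGACGTCA occurred there in 3.17% and 0.821%, so a higher share in low-CpG member promoters was not particular to TGANGTCA. TGACG (9.52% and 11.3%) and GGNGCATGC (0% and 0.696%) were lower in the member promoters. A match is a stretch of letters and no evidence of binding. CREM, a transcription factor of spermatids that binds such elements, was no member, with 272, 444 and 391 normalised counts in control, contralateral and MCAO libraries (Crem, chosen after its values were seen).

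In the contralateral library the members ranged from 100.3 to 1647 normalised counts, with quartiles of 126 and 251 and a median of 163. Their median was 1 in the control library, where 97 were listed at the minimum of 1 and the highest had 9.69, and 1.09 in the MCAO library, where 94 were listed at 1 and the highest had 9.41. A value listed at 1 stands for 0 reads in the MCAO library and for 0 or 1 read in the others. All 188 members passed the filter of a mean of 20 over the libraries, and all were at least 2-fold higher than control (5.17% of 14906 genes tested were), than MCAO (4.96%) and than both (4.13%), as the choice of members fixes. Another 0.362% of the genes tested were at least 2-fold lower than control, a call no member can have.

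Summed over the members, 50294 contralateral reads made up 0.148% of that library (95% exact Clopper-Pearson interval 0.147% to 0.150%). The same genes took 392 reads or 0.00123% of the control library (0.00111% to 0.00136%) and 258 reads or 0.000995% of the MCAO library (0.000877% to 0.00112%). The contralateral share was 121 times that of the control (109 to 133) and 149 times that of the MCAO library (132 to 169). These control figures take a value listed at 1 as 0 reads. With 1 read for each of the 97 such members the control sum was 489 reads and the ratio 96.6 (88.4 to 106). The members were thus not wholly missing elsewhere: 61 were above the minimum in both other libraries and 64 were at it in both. In a bulk library, more cells of a type and more RNA per cell cannot be told apart, and the source of these reads was not tested.

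**Figure D2:**
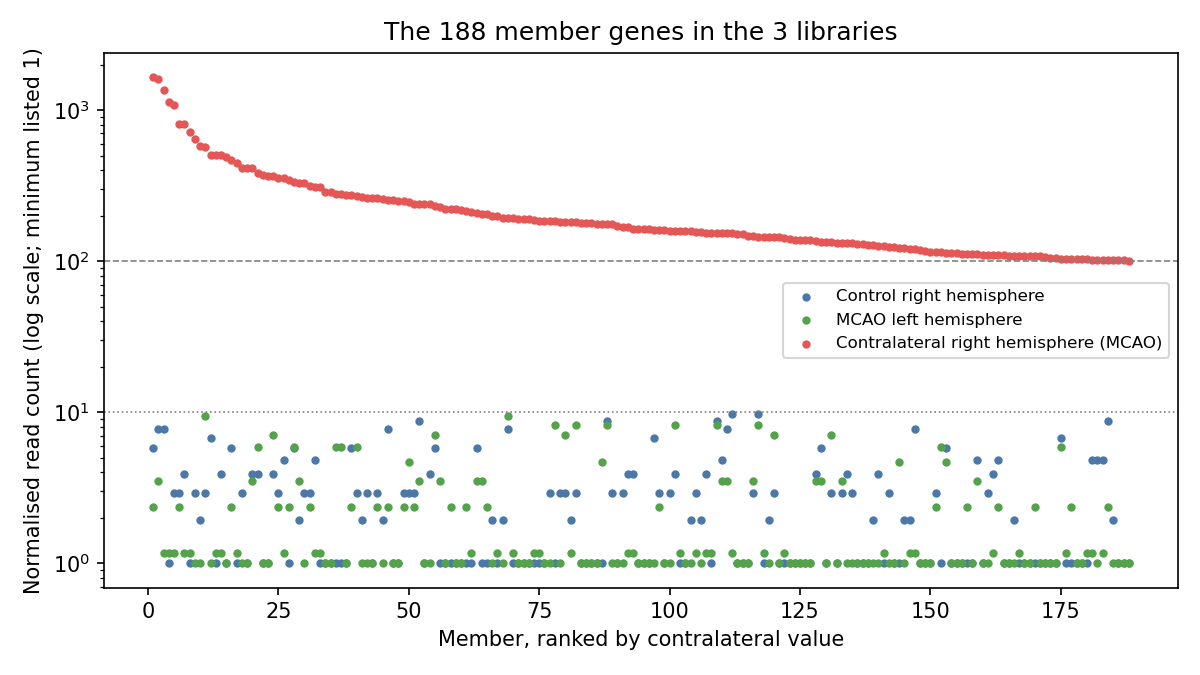
Normalised read counts (log axis) of the 188 members in the control (blue), contralateral (red) and MCAO (green) libraries, ranked by the contralateral value, with lines at the thresholds of 100 and 10. A few genes stand above 500 on the left, the red points then fall slowly to 100.3, and blue and green points lie between 1 and 9.69 over the whole range.

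Reads were spread over many genes. The 6 highest members held 17.1% of the members' contralateral reads and the 20 highest held 33.8%. There were 14 members at 500 or more, 51 from 200 to 500 and 123 under 200. The rule caps the values in the other libraries at 10, which weighs most on genes with high contralateral values. How these traces scale with the contralateral values therefore cannot be read from the members, and the sums that follow are descriptions. The 20 highest members had 64 control and 28 MCAO reads beside 17013 contralateral ones, and the other 168 had 328 and 230 beside 33281. Across the 188 members, Spearman's rho was 0.16 between contralateral and control values, 0.20 between contralateral and MCAO values and 0.47 between control and MCAO values. These are descriptions over genes cut by the same thresholds, with many tied at 1. Counts are not corrected for transcript length, so no order of abundance between genes is read from them.

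The members named the late stages of spermatogenesis more than the early ones. On lists of marker genes for 5 stages, 36 of the 66 elongating spermatid genes looked up were members (54.5%), as were 17 of 50 round spermatid genes (34.0%), 10 of 38 genes of pachytene to the meiotic divisions (26.3%), 3 of 35 meiotic prophase genes (8.57%) and 0 of 16 spermatogonial genes. In all, 62 members were on a stage list, and 99 were on a stage list or 1 of 14 lists by function. Over all genes, 188 of 16610 were members, the share to set beside these counts and the list counts below. The lists overlap and were written with earlier results of these data known. The counts moved with the minimum: at 200 they were 19, 3, 4, 1 and 0 in the same order, so that round spermatid genes fell below pachytene ones, and at 50 they were 45, 29, 12, 4 and 0. With a maximum of 5 or 20 in the other libraries the meiotic prophase count was 1 or 5. Part of the gradient lies in the rule: 14 of the 16 spermatogonial genes and 23 of the 35 meiotic prophase genes were above 10 in another library, against 11 of the 50 round and 17 of the 66 elongating spermatid genes.

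**Figure D3:**
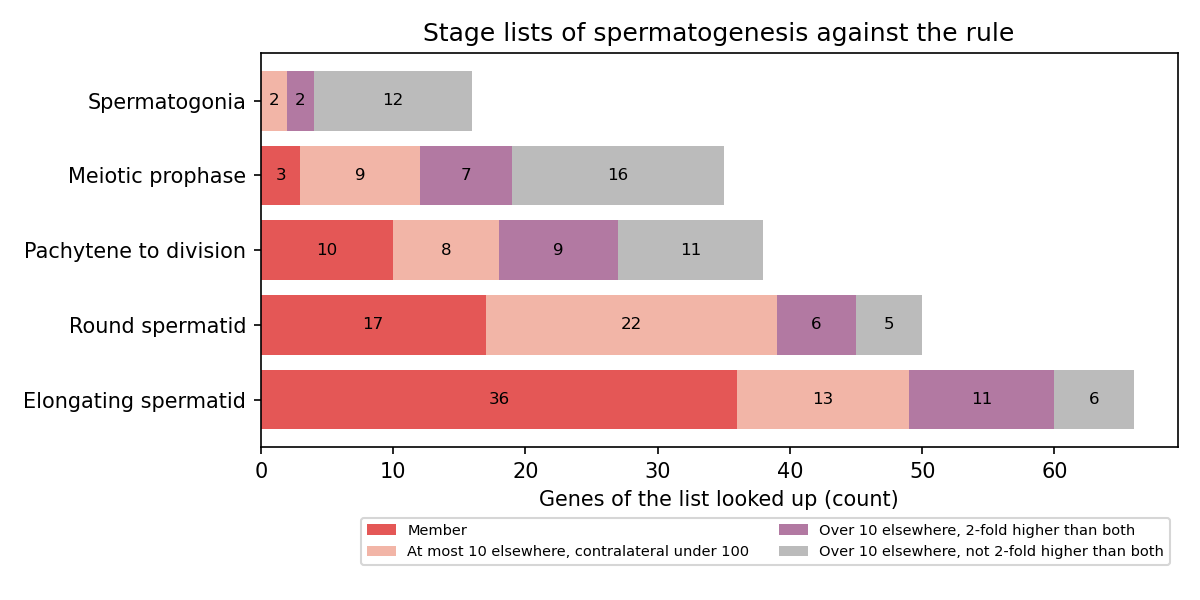
Genes of the 5 stage lists by what the rule made of them, as counts. Members (red) go from 0 of 16 for spermatogonia to 36 of 66 for elongating spermatids, and grey parts, genes above 10 elsewhere and not 2-fold higher than both libraries, go from 12 to 6.

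Listed genes that were not members were counted apart. Of those past the filter, 19 of 23 elongating spermatid genes exceeded both other libraries by 2-fold or more in the contralateral one, 13 of 18 round spermatid genes, 11 of 21 pachytene genes, 8 of 19 meiotic prophase genes and 2 of 12 spermatogonial genes, against 4.13% of all genes tested. Their median log2 difference from the control, on log2(value + 5), was 3.71, 2.26, 1.52, 0.75 and 0.14 in the same order, and -0.0037 over all 14906 genes. With the members included it was 4.56, 3.87, 2.46, 1.10 and 0.14. A gene near 1 in the other libraries passes this filter only through its contralateral value, so these counts are no independent support.

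Genes of sperm nuclear condensation gave 7 members of 21 looked up. Prm2, a protamine that packs sperm DNA, had 5.81, 1647 and 2.35 normalised counts in control, contralateral and MCAO libraries. Prm1, the other main protamine, had 2.91, 567 and 9.41. The transition proteins fill the step between histones and protamines, and Tnp1 had 2.91, 1079 and 1.18. Tnp2 had 1, 720 and 1.18. In each of these genes the contralateral value stood alone, as the rule fixes, and Prm1 was close to the limit of 10 in the MCAO library. The spermatid linker histones Hils1 (1.94, 265 and 1) and H1fnt (1, 261 and 1) and the chromatin protein Hmgb4 (1, 185 and 1) completed the group. Prm3 had 63.0 in the contralateral library and 1 in both others, under the threshold.

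Tail and energy genes held many of the highest members. Akap4 encodes the main protein of the fibrous sheath, the scaffold along the sperm tail, and had 7.75, 1351 and 1.18 normalised counts in control, contralateral and MCAO libraries. Its partner Akap3 (12.6, 572 and 4.71) missed the rule through its control value. Ropn1, which docks on such anchoring proteins, had 1.94, 127 and 1, and the actin-bundling Fscn3 had 1.94, 108 and 1. Of 20 fibrous sheath genes looked up, 5 were members and 12 of the 19 past the filter were 2-fold higher than both libraries (4.13% of all genes tested were). These 12 include the 5 members, whose call the rule fixes, so the count is no independent support. Sperm glycolysis is bound to this sheath. Ldhc, the lactate dehydrogenase of germ cells, had 7.75, 1607 and 3.53, and Pgk2, the phosphoglycerate kinase made from meiosis on, had 1, 492 and 1. Ldhal6b (4.84, 354 and 1.18), a further lactate dehydrogenase-like gene, was a member too. The list of sperm glycolysis and related genes gave 6 members of 23. They include Galntl5 (1, 215 and 2.35) and the glycerol kinases Gk2 and Gykl1, which are also on the mitochondrial list. Gapdhs, the spermatid form of glyceraldehyde phosphate dehydrogenase, had 17.4, 654 and 23.5 and missed the rule in both other libraries.

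The mitochondrial list gave 8 members of 24. Smcp, a cysteine-rich protein of the sperm mitochondrial capsule, had 2.91, 812 and 2.35 in control, contralateral and MCAO libraries. The glycerol kinases Gk2 and Gykl1, needed to lay the mitochondria around the tail, had 5.81, 334 and 5.88, and 1, 275 and 1. Spata18 (4.84, 311 and 1.18), Spata19 (1, 157 and 1.18), Slc22a14 (1, 143 and 1.18), Armc12 (1, 107 and 1) and Cox8c, a cytochrome c oxidase subunit (1, 107 and 1.18), made up the rest. All 8 were thus under 6 in both other libraries.

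Acrosome genes gave 14 members of 49, in a narrow range of 103 to 210 contralateral counts. Among them, Actrt2 and Actl7b, actin-like proteins of the sperm head, had 210 and 205, Actl7a had 199, Lypd4 189, Spesp1 of the equatorial segment 164 and Sppl2c 157. Spata16 (133) and Dpy19l2 (115), whose loss gives round-headed sperm in humans, and Acrv1 (106) and Zpbp2 (109), proteins of the acrosome content, lay lower. None of these 10 was above 5 in another library. Another 21 acrosome genes were at most 10 elsewhere and under 100 in the contralateral library, such as Spink2 at 97.6, an acrosomal protease inhibitor. Of 21 genes of sperm-egg binding and fusion 3 were members. Crisp2, a cysteine-rich secretory protein of acrosome and tail, had 1, 1132 and 1.18 normalised counts in the 3 libraries, and Zp3r, an acrosomal protein that binds the egg coat, had 1, 107 and 2.35.

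Genes that shape the head and tail formed the longest list, with 26 members of 91. The germ cell alpha tubulins Tuba3a (1, 503 and 1.18 normalised counts in control, contralateral and MCAO) and Tuba3b (5.81, 465 and 2.35) are near-identical and can share reads, so their single values are uncertain. Kif2b, a kinesin that shortens microtubules, had 1, 412 and 1, and Spata4 had 3.87, 412 and 3.53. Cetn1, a centrin of the centriole, had 2.91, 184 and 1. Lower members included the head proteins Capza3 (104), Ccin (103) and Cylc2 (113), the septin Sept12 of the tail ring (107) and Spem1 (133), needed to shed the cytoplasm. Each of these 5 genes was under 10 in the other libraries by the rule, and the highest there was Spem1 with 7.06 in the MCAO library.

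Signalling, transport and gene regulation gave smaller counts. The testis-specific serine kinases Tssk2 (190 contralateral counts), Tssk1 (153) and Tssk3 (101) were members among 6 Tssk genes, and Tssk1 had 7.75 in the control. Ppp3r2, the regulatory subunit of the sperm calcineurin phosphatase, had 5.81, 233 and 7.06 normalised counts in the 3 libraries. Of 39 kinase and signalling genes 6 were members. Of 29 ion transport genes 4 were, among them Adcy10, the bicarbonate-sensing adenylyl cyclase of sperm (8.72, 240 and 3.53), and Catsperg2, a subunit of the sperm calcium channel (4.84, 111 and 3.53). Of the channel's pore subunits, Catsper1, Catsper3 and Catsper4 had 63.9, 48.8 and 56.8 in the contralateral library, under the threshold, and Catsper2 had 65.9, 216 and 87.0 in the 3 libraries, above 10 elsewhere (all 4 chosen after their values were seen).

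Transcription and chromatin gave 4 members of 37, led by Spz1 (3.87, 806 and 1.18 normalised counts in control, contralateral and MCAO), a leucine zipper factor, with Fhl5, a coactivator of CREM, at 2.91, 158 and 1. RNA binding and translation gave 4 of 31. Pabpc2, a poly(A)-binding protein of germ cells, had 2.91, 413 and 1, and Papolb, the cytoplasmic poly(A) polymerase of spermatids, had 3.87, 366 and 7.06. The piRNA list, genes of the small RNAs that silence transposons in germ cells, gave 3 of 23: Piwil1 (8.72, 153 and 8.23), Gtsf1l (1.94, 157 and 1) and Gtsf1 (1, 128 and 1). Mael of the same pathway (4.84, 531 and 10.6) missed the rule by its MCAO value. Ubiquitin and proteolysis gave 9 of 59, with Klhl10, an adaptor of spermatid ubiquitin ligases, at 7.75, 256 and 2.35. Chaperones and redox proteins gave 6 of 27, with Txndc2, a sperm tail thioredoxin, at 3.87, 382 and 5.88.

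Meiotic prophase was named by 3 members, all of the synaptonemal complex, which zips paired chromosomes. Sycp2 had 5.81, 209 and 3.53 normalised counts in control, contralateral and MCAO libraries, Syce1 had 2.91, 181 and 7.06, and Sycp1 had 3.87, 135 and 3.53. Sycp3 of the same complex had 110, 184 and 113 and Stag3, a meiotic cohesin, 11.6, 235 and 16.5, so both were above 10 elsewhere. Spo11 and Dmc1, which make and mend the meiotic DNA breaks earlier in prophase, had 18.6 and 10.6 in the contralateral library and at most 5.81 elsewhere (chosen after their values were seen). Other listed genes were higher there: Smc1b had 1.94, 204 and 12.9, Hormad1 1, 59.4 and 1 and Tex15 19.4, 94.9 and 11.8 (also chosen after their values were seen). Of 19 prophase genes past the filter that were not members, 8 were 2-fold higher than both libraries (4.13% of all genes tested were). No spermatogonial gene was a member. Ddx4, a germ cell RNA helicase kept through meiosis, had 28.1, 422 and 44.7, Dmrtb1 22.3, 252 and 35.3 and Dazl 76.5, 147 and 32.9, while Kit, Gfra1 and Etv5, which brain cells express too, had contralateral values of 1365, 1127 and 3345 against control values of 1269, 1441 and 3136 (all 6 on the spermatogonial list).

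Germ cell forms were compared with the related genes that other tissues use. Of 44 such pairs looked up, 16 had a member as the germ cell form, with 15 germ cell forms and 14 counterparts. The rule fixes how these 15 forms differ between libraries, so their contrast with the counterparts is no independent support. None of the 14 counterparts differed 2-fold, up or down, between the contralateral library and either of the others. Few genes did: of all 14906 tested, 5.17% were 2-fold higher and 0.362% lower than control, and 4.96% higher than MCAO. The count for the counterparts is therefore near the share over all genes. Contralateral over control ratios went from 0.824 for Ppp3r1 (95% counting interval 0.808 to 0.841) to 1.31 for Pabpc1 (1.26 to 1.36), with a median of 1.08, and 9 counterparts were higher and 5 lower. Ldha had 10601, 10920 and 12471 normalised counts in control, contralateral and MCAO libraries, and Ldhb 31093, 30955 and 31276, while Ldhc had 7.75, 1607 and 3.53. Pgk1 had 13532, 16077 and 17692, and Pgk2 had 1, 492 and 1. The largest departure from the MCAO library was Actb at a ratio of 0.706 (0.695 to 0.718), beside Actl7a and Actl7b, which had 1 and 2.35 there.

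**Figure D4:**
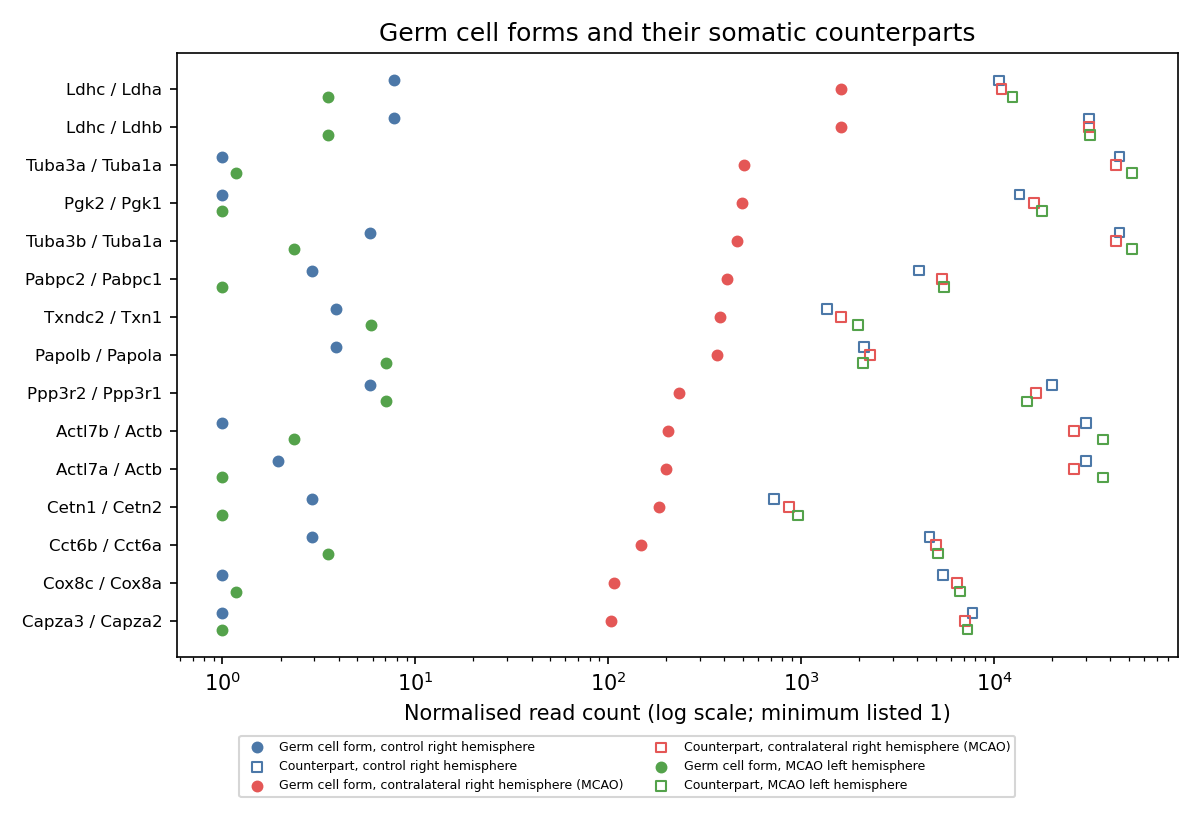
Normalised read counts (log axis) of 15 pairs of a member germ cell form (filled circles) and its counterpart (open squares) in the control (blue), contralateral (red) and MCAO (green) libraries. The circles separate by library, as the rule fixes, with red between 104 and 1607. The squares of the 3 libraries lie close together.

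Other cells of the testis were looked up in the same way. Of 20 Sertoli cell genes (the nurse cells of the tubule) 0 were members, and 6 of them were at most 10 in the other libraries, with contralateral values from 11.5 to 42.6, the highest being Cst9 (42.6) and Prnd (39.9). Of 19 Leydig cell genes (the androgen-making cells between tubules) 0 were members, and 7 were at most 10 elsewhere, with contralateral values from 10.6 to 73.6. Over all genes 188 of 16610 were members, so 0 on lists this short is near that share. Past the filter, 2 of 13 Leydig and 0 of 11 Sertoli cell genes were 2-fold higher than both libraries (4.13% of all genes tested were). These 2, Cyp17a1 and Insl3, passed the filter only through their contralateral values, so the count is no independent support. Cyp17a1, an androgen synthesis enzyme, had 1, 73.6 and 1.18 normalised counts, Insl3, a hormone of these cells, 1, 60.3 and 1, and Hsd3b6 1, 39.9 and 1 in control, contralateral and MCAO libraries. Genes listed here at 10 or less in 2 libraries had to be higher in the third, since the highest value of every gene in the table was 10.6 or more. Genes also read in the other libraries varied: Star, the cholesterol carrier of steroid synthesis, had 273, 264 and 272. Cyp11a1 of the Leydig list had 40.7, 78.1 and 50.6 and Aard of the Sertoli list 72.6, 140 and 96.5. None of these genes was 2-fold higher than both other libraries, and all were chosen after their values were seen. Amh, a Sertoli cell hormone, had 12.6, 7.10 and 11.8 (chosen after its values were seen).

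Ependymal cells, oocytes and other cell types, some of which share proteins with sperm tails or germ cells, were looked up as well. Of 47 ependymal and multiciliated genes 0 were members, and 17 of 40 past the filter exceeded both other libraries 2-fold (4.13% of all genes tested did), with a median log2 difference from the control of 0.97. The 17 included Hydin (9.69, 155 and 12.9 normalised counts in control, contralateral and MCAO libraries), Mlf1 (48.4, 348 and 38.8) and Ak7 (43.6, 96.7 and 34.1). Others were not among them: Foxj1, the master factor of motile cilia, had 259, 307 and 327 and Ccdc153 25.2, 32.8 and 24.7. Tmem212 (20.3, 10.6 and 10.6) did not pass the filter. All of these genes were chosen after their values were seen. Meig1, on this list and on the sperm lists, had 21.3, 382 and 20. Of 6 oocyte genes 1 was a member, Nlrp14 (100.3), and of 4 epididymis genes 1, Cst8 (107). None of the choroid plexus (20), astrocyte (20), neuron (18), skeletal muscle (16), skin (10), kidney (8), liver (7), lung (7) or pancreas and gut (4) genes looked up was a member. Of these, 19, 20, 18, 12, 8, 8, 4, 3 and 2 passed the filter in the same order, and none was 2-fold higher than both libraries. With 4.13% of all genes tested so called, 0 on each list this short is near the share over all genes. The part of another tissue in the contralateral values was not tested beyond these lists.

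**Figure D5:**
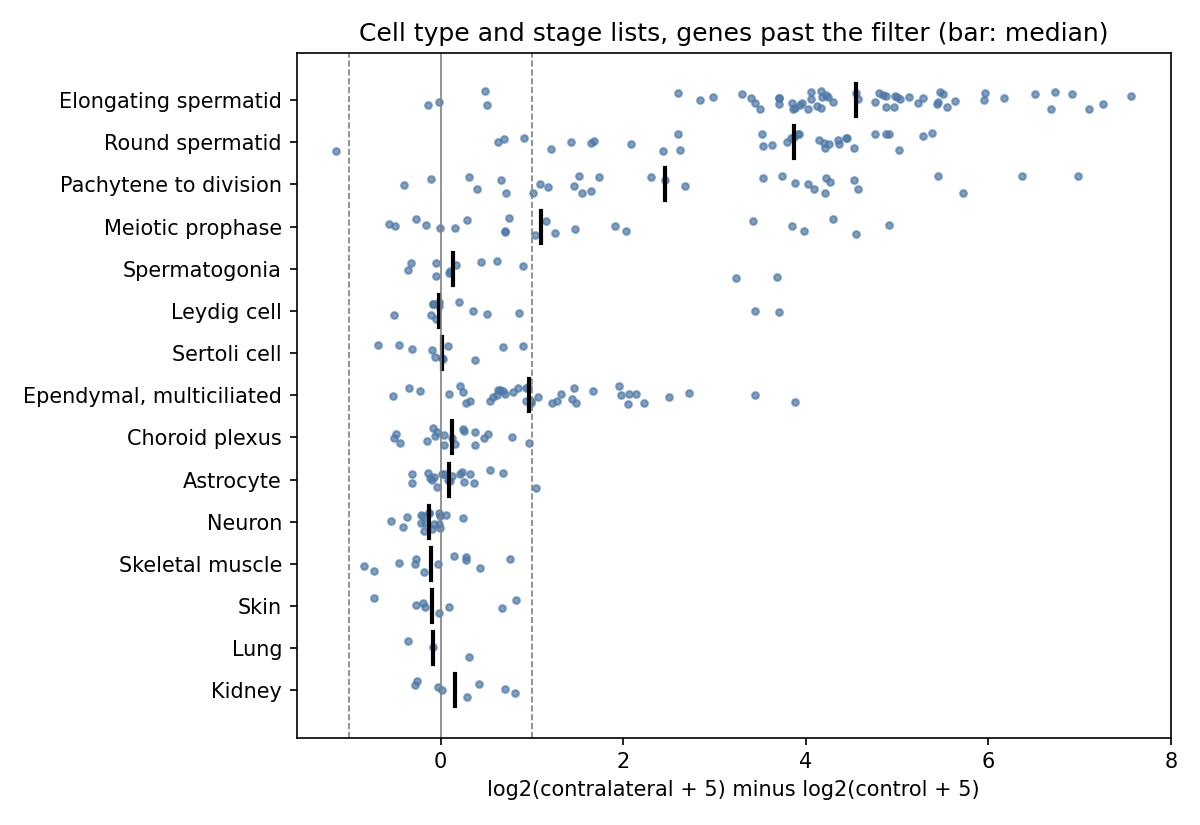
Difference between contralateral and control libraries, on log2(value + 5), for each gene past the filter on 5 germ cell stage lists and 10 cell type lists, with the median as a black bar and dashed lines at 2-fold. With the members included, whose difference the rule fixes, medians go from 4.56 for elongating spermatids to 0.14 for spermatogonia. The ependymal median is 0.97, and those of Leydig, Sertoli, astrocyte, neuron, muscle, skin, lung and kidney lists lie near 0. The Leydig genes Cyp17a1 and Insl3 stand apart at 3.71 and 3.44. Other Sertoli and Leydig genes at most 10 elsewhere did not pass the filter and are not shown, so these 2 medians rest mostly on genes also read in the other libraries.

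The members were scattered over the genome. Positions on GRCm38.p6 were found for 187 of the 188, 178 of them protein-coding genes, 6 long noncoding RNAs, 2 transcribed pseudogenes and 1 noncoding RNA pseudogene. Chromosome 17 held 18 members (9.63%, against 4.88% of the genes of the table), chromosome 16 held 10 (5.35% against 3.07%), chromosome 2 held 4 (2.14% against 7.90%) and the X chromosome held 1, Akap4 (0.535% against 3.77%). There were 10 groups of neighbours at most 50 kb apart, with 22 members. The protamine cluster on chromosome 16, from 10787935 to 10796823, held Tnp2, Prm3, Prm2 and Prm1 within 8889 bases, and 3 of these 4 were members. Tssk1 and Tssk2, Actl7b and Actl7a, Cmtm2a and Cmtm2b, Fam71f2 and Fam71f1 and Spem1 with 4933402P03Rik were further groups. No members overlapped each other in these positions.

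Several members belong to families of close copies. All 3 Tcp10 genes were members, Tcp10c at 260, Tcp10b at 238 and Tcp10a at 184 contralateral counts, and reads may be shared among them. Both Cmtm2 genes were, at 366 and 162, as were 4 of 7 Fam71 genes and 4 of 6 Actl genes. Gm3417 and Gm3448, neighbours on chromosome 17, had the same 3 values (1, 278 and 5.88) and may share reads, so they may count 1 gene as 2. The other Actl genes, Actl6a and Actl6b, are subunits of chromatin remodelling complexes and had 355 and 1586 contralateral counts against 306 and 1873 in the control (chosen after their values were seen).

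A large part of the members had no place on a stage or function list, 89 of the 188. Among all members, 28 had symbols ending in Rik and 9 were named Gm with digits. The highest member outside the lists was 4922502D21Rik, named Clec2m in RefSeq, with 2.91, 647 and 1 normalised counts in control, contralateral and MCAO libraries. It was followed by Fabp9, a lipid-binding protein of the sperm head, with 1.94, 578 and 1, by 4933411K16Rik with 6.78, 507 and 1, and by Mroh2b with 3.87, 503 and 1.18 (the Rik genes chosen after their values were seen).

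The thresholds cut through a continuous range. Just inside the limit of 100 lay Nlrp14 at 100.3 and Ccdc158, Tssk3 and Prps1l1 at 101, and just below it Rpl39l and Tex21 at 99.4 and Spink2 at 97.6. Near the limit of 10, Fam217a had 9.69 in the control and Fam71f2 9.41 in the MCAO library, while Gsg1 (12.6, 868 and 8.23) and Tcp11 (11.6, 750 and 1.18) fell outside through their control values (Fam217a chosen after its values were seen). A further 158 genes had 50 to 100 contralateral counts with at most 10 elsewhere, and 55 had at least 100 with 10 to 20 as the higher of the other values.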

How the data were processed

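Ribosome-bound RNA from 3 pools of mouse brain hemispheres was read as 1 table of 16610 gene symbols with 1 column per library. The authors deposited a signal: each library's read counts after division by its own size factor. Every gene has a value of 10.6 or more in 1 library, and values below 1 are listed as 1. Per the submitters' processing notes, CASAVA 1.8, HISAT2 2.0.11, Partek 6.6, R 3.3.1, DESeq2 and the build mm10 were used; roles and strand are not given in the sources used here. Columns were matched to libraries by the sample descriptions.

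From the steps between low values, whole reads were recovered for each library, within 0.1 read, and used for depth, shares and exact Clopper-Pearson intervals. These cover counting error only, since reads are not independent molecules. With 1 library per group no test was possible. Differences on log2(value + 5), a scale that understates changes at low counts, were called at 2-fold among the 14906 genes whose mean reached 20. The counting was tested on simulated data.

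The members and all lists were chosen with earlier results of these data known. Named genes were the 6 markers given with the rule, the 20 highest members, up to 6 members and 3 other genes per list by contralateral value, members with a counterpart, and the 3 genes on each side of 100. Genes outside this were chosen after their values were seen. They are marked so in the text or are Acrv1, Akap3, Armc12, Ccin, Cst9, Cylc2, Cyp17a1, Dazl, Ddx4, Dmrtb1, Dpy19l2, Gapdhs, Gfra1, Hmgb4, Hsd3b6, Insl3, Mael, Meig1, Prm3, Prnd, Prps1l1, Sept12, Spata16, Spem1, Sycp3, Tcp11, Zpbp2 and those named as part of a neighbour group or family. Gene positions and promoters came from RefSeq tables for GRCm38.p6, by symbol (175 members) or older symbol (12). Python 3.11.15, pandas 2.3.3, numpy 2.4.6 and scipy 1.17.1 were used. Alternatives changed the thresholds, symbol filter, scaling, pseudocount and low-value filter. A result on 1 further member is left out and not reported here.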

Additional observations from a re-analysis of the deposited data

How the results depend on the processing

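All 188 members rest on 1 library without replicates, so pool, animals, hemisphere and library cannot be told apart, and depth sets only the counting error. A minimum of 50 in the contralateral library gave 346 genes, 0.186% of its reads and a median of 105 counts, and a minimum of 200 gave 65 genes, 0.0912%, a median of 308 and 25 genes on the stage lists. With a maximum of 5 in the other libraries the share was 0.108%, with a maximum of 20 it was 0.192%, and with no symbol dropped it was 0.160%. The mirrored rule gave 18 genes with a maximum of 20 and 30 with a minimum of 50, all of them in the MCAO library and against 6 as reported. Genes 2-fold higher than both libraries numbered 1181 without the filter on low values, against 616. The median log2 difference of the somatic counterparts was 0.14 with scaling by library total, against 0.11. The number of members was 152 and 243 with a maximum of 5 and of 20, 196 with no symbol dropped and 190 with scaling by library total. No paired analysis was possible because each group has 1 library.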
